A study of Mus musculus with 3 samples.

Results

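Neuron-enriched microRNAs (miRNAs) were examined in Müller glia (MG), the main glial cells of the retina, that had been purified by fluorescence activated cell sorting (FACS). The members were 8 miRNAs named in advance by their miRBase identifiers, and all 8 were among the 602 miRNAs of the panel. They were miR-124 (MIMAT0000134), miR-128 (MIMAT0000140), miR-137 (MIMAT0000149), miR-138 (MIMAT0000150), miR-153 (MIMAT0000163), miR-129-5p (MIMAT0000209), miR-7a (MIMAT0000677) and miR-218 (MIMAT0000663). The assay was NanoString nCounter, in which a tag is ligated to every mature miRNA and single tags are then counted, with no amplification step.

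There were 3 samples, with 1 pooled sample per condition. The wild type sample came from the sorts of 40 undamaged retinas of adult Rlbp1-CreER:tdTomato mice. The light damage (LD) sample came from 44 retinas of the same reporter line, 7 days after 8 h of bright light. For this purpose the line had been crossed to an albino Swiss Webster strain. That strain carries the leucine variant of RPE65, which the study describes as a modifier of susceptibility to light damage. The Dicer-cKO sample came from 26 retinas of Rlbp1-CreER:tdTomato:Dicerf/f mice, 1 month after the deletion of Dicer, the enzyme that cuts precursors into mature miRNAs. All mice carried Cre and the tdTomato reporter and received tamoxifen at 75 mg/kg, for which the labels give 3 days and the methods 4. The Rlbp1 promoter limits Cre and the reporter to MG in the neural retina, so retinal neurons of the Dicer-cKO mice should keep their Dicer. In comparisons with the LD sample, strain, measurement series and condition cannot be told apart. The LD mice had another background, and the wild type and Dicer-cKO counts came from an earlier study. Whether those 2 samples were measured together is not stated. With 1 sample per condition no test was possible. Ratios are therefore given with exact 95% Clopper-Pearson intervals, which cover counting error only and not the spread between animals or sorts. They treat the counts left after background subtraction as plain counts, so the error of the subtracted counts is not covered. For low counts the intervals are therefore too narrow. Below, counting error means only the error that these intervals cover.

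A miRNA guides Argonaute proteins to messenger RNAs through its seed, the bases near its 5′ end, and lowers the output of those messengers. miR-124 is the classic miRNA of differentiated neurons, in the retina as in the brain, and represses transcripts of non-neuronal cells such as Ptbp1, a splicing regulator. The other members are known from neurons too. miR-128 limits neuronal excitability, miR-137 acts on dendrite growth and synapses, miR-138 limits the size of dendritic spines, miR-153 represses synaptic proteins such as Snap25, miR-129-5p represses the potassium channel Kcna1, miR-7a is bound by the circular RNA Cdr1as and miR-218 is abundant in motor neurons.

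Mature sequences are shown because the members were grouped by function and not by sequence, and because a shared seed would mean shared targets. RefSeq (GRCm38.p6) provided 7 of the 8, printed 5′ to 3′ with the seed (bases 2 to 8) in capitals:
miR-128: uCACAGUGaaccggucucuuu
miR-137: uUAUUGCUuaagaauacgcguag
miR-138: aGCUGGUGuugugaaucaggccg
miR-153: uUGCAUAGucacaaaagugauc
miR-129-5p: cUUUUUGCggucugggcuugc
miR-7a: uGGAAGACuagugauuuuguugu
miR-218: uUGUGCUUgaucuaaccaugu
The 7 sequences had 7 different seeds, so none of these members belonged to the seed family of another. Among all mature mouse miRNAs of the same table, the seed of miR-7a was shared by miR-7b-5p and that of miR-218 by miR-7002-3p. The seeds of the other 5 were found in no further miRNA of that table.

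These 7 miRNAs were encoded at 12 positions, and 5 of them came from a pair of genes. In GRCm38.p6 miR-128 lay at chr1:128202404-128202424 (plus strand) inside the span of the protein-coding gene R3hdm1 and at chr9:112118644-112118664 (minus strand) inside Arpp21. miR-218 lay at chr5:48223966-48223986 inside Slit2 and at chr11:35616840-35616860 inside Slit3, both on the plus strand. miR-7a lay at chr13:58392841-58392863 (minus strand) inside Hnrnpk and at chr7:78888295-78888317 (plus strand) outside the span of any other listed gene. miR-137 lay at chr3:118433901-118433923 (plus strand), also outside such a span. The table gives gene spans only, so exons and introns were not distinguished. A mature miRNA made from a pair of genes has the same sequence from both, and its count cannot be assigned to either.

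The samples differed in how many miRNA counts they held. The authors' software had subtracted a background and multiplied each sample by a factor, and the factors recovered from the table were 1.15 for wild type, 2.04 for LD and 4.42 for Dicer-cKO. Before scaling the miRNA counts above the lowest value summed to 678491, 229889 and 43931, respectively, so a given share of the miRNA signal rests on the fewest counts in the Dicer-cKO sample. The highest ERCC row had 31870 counts in wild type, 32612 after LD and 40120 in Dicer-cKO, so the spike-ins were not counted less in Dicer-cKO. Before scaling, the wild type counts of the 4 housekeeping mRNAs were 2.96 (B2m) to 4.92 (Gapdh) times their Dicer-cKO counts, and that of the miRNA total was 15.4 times. Relative to LD, the housekeeping mRNAs were 1.03 (Rpl19) to 3.71 (Gapdh) times, and the miRNA total of 2.95 times lay within that range. The methods give 1 fixed amount of total RNA per sample, in the account of the LD sorts. The value in the text is the normalized count, the deposited value after subtraction and scaling, unless counts before scaling are named. Each miRNA has its own tagging efficiency, so sums, ranks and shares over different miRNAs below are of counts and not of molecules. Of the 602 miRNAs, 260 were at the lowest value in wild type, 356 after LD and 359 in Dicer-cKO. The 14 spike-in (ERCC) rows were used as a second limit. The methods name 6 positive and 8 negative controls, and the 8 lowest ERCC rows were taken as the negative controls. The highest of the 8 still had 23.4 counts in wild type, 31.5 after LD and 38.6 in Dicer-cKO after subtraction. On the normalized scale of the miRNAs this corresponds to 27.0, 64.1 and 170.7. In every sample this limit was set by the same single row, which was taken as a control by its level alone. The second highest of the 8 had 18.4 counts in wild type, 5.50 after LD and the lowest value in Dicer-cKO, where 7 of the 8 were at the lowest value.

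miR-124 was the only member above the highest negative control in every sample. Above this limit were 3 of the 8 members in wild type (miR-124, miR-137 and miR-129-5p), 3 after LD (miR-124, miR-137 and miR-138) and 1 in Dicer-cKO (miR-124). In comparison, 35.5% of all panel miRNAs were above it in wild type, 18.8% after LD and 12.1% in Dicer-cKO. Above the second highest control were 4 members in each sample, with miR-138 added in wild type, miR-7a after LD, and miR-128, miR-129-5p and miR-7a in Dicer-cKO. The panel shares at this limit were 39.0%, 31.6% and 40.4%. miR-124 was the only member above this lower limit in all 3 samples too. miR-153 was at the lowest value in all 3 samples. The normalized counts of the 8 members summed to 1500 in wild type, 5723 after LD and 12197 in Dicer-cKO. miR-124 made up 90.3%, 96.2% and 99.3% of these sums, and the other 7 together had 146, 217 and 91. The sum of the list is thus almost the count of miR-124.

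**Figure D1:**
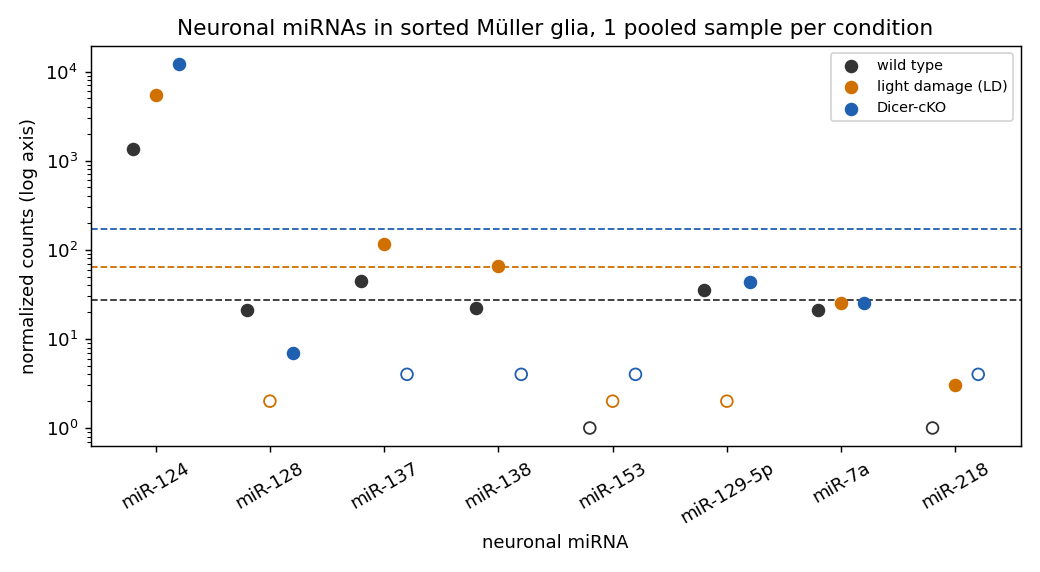
Normalized counts (log axis) of the 8 neuronal miRNAs in the wild type, LD and Dicer-cKO samples, 1 point per sample, with open circles for values at the lowest value of a sample and dashed lines at the highest negative control of each sample. miR-124 lies at 1354, 5506 and 12106, far above all 3 lines, whereas the other 7 miRNAs lie at 117 or below.

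In wild type MG miR-124 was counted 1354 times on the normalized scale, compared with 5506 times after LD and 12106 times after Dicer deletion. The wild type sample was the lowest and the Dicer-cKO sample the highest. The ratio to wild type was 4.07 (95% interval 3.80 to 4.36) after LD and 8.94 (8.35 to 9.58) in the Dicer-cKO sample. The LD level was 0.455 times the Dicer-cKO level (0.431 to 0.480). In the scaling of the authors, all 3 differences were larger than the counting error. Before scaling, miR-124 had 1172 counts in wild type, 2706 after LD and 2739 in Dicer-cKO. Both conditions were thus higher than wild type before any factor was applied, 2.31-fold (2.15 to 2.47) after LD and 2.34-fold (2.18 to 2.50) in Dicer-cKO, but they did not differ from each other beyond counting error (ratio 0.988, 0.936 to 1.04). On the normalized scale the order of LD and Dicer-cKO therefore comes from the scaling factors. In a pooled sort, more material from other cells and more miR-124 per glial cell cannot be told apart. By the methods, the gate kept the cells of brightest tdTomato fluorescence, non-fluorescent cells (the neuronal fraction) went to another gate, cells between the gates were discarded, and purity was examined by sorting a second time.

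miR-124 ranked 34 of 602 in wild type, 16 after LD and 4 in Dicer-cKO. Its share of the miRNA signal was 0.173% (95% interval 0.163 to 0.183) in wild type, 1.18% (1.13 to 1.22) after LD and 6.23% (6.01 to 6.46) in Dicer-cKO. A rank and a share do not depend on a factor per sample but both move with the other miRNAs, so neither supports the order of LD and Dicer-cKO. In these samples the total fell short of wild type in both conditions, with 783889 normalized counts in wild type, 468576 after LD and 195642 in Dicer-cKO. In the Dicer-cKO sample the 3 miRNAs above miR-124 were miR-204, miR-125b-5p and miR-9, which also held the 3 highest ranks in wild type.

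**Figure D2:**
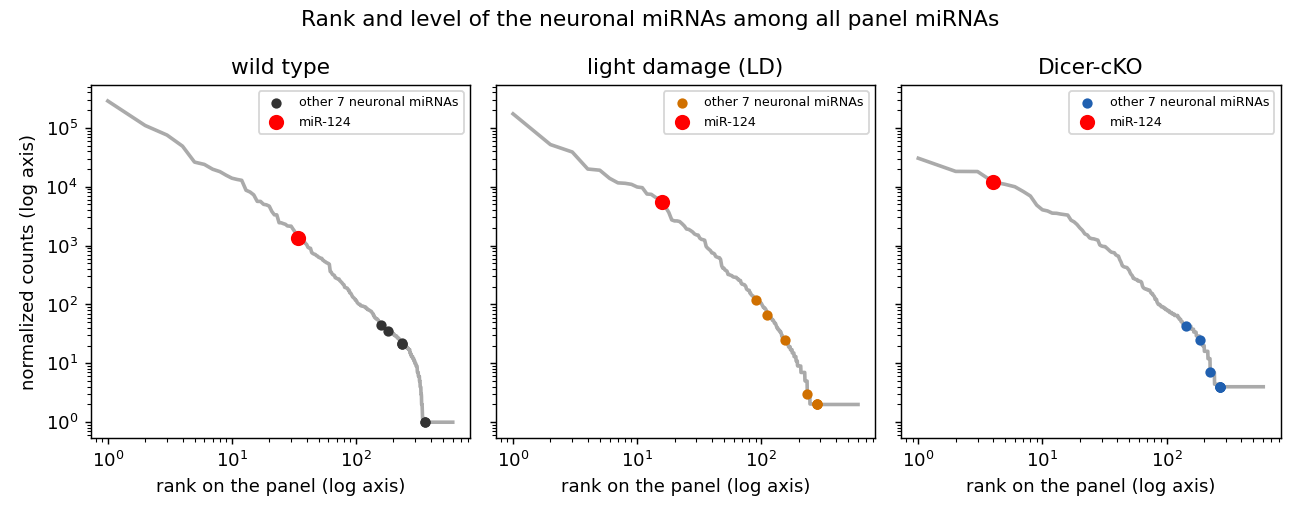
Normalized counts (log axis) of all 602 panel miRNAs against their rank (log axis) in each sample as a grey line, with miR-124 in red and the other 7 neuronal miRNAs as small points. miR-124 is at rank 34 in wild type, 16 after LD and 4 in Dicer-cKO, while the best rank of another neuronal miRNA is 91, reached by miR-137 after LD.

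miR-204, miR-125b-5p and miR-9 are known from MG. They held 36.5%, 14.0% and 9.62% of the wild type miRNA signal. The rows of these 3 miRNAs had been named through the changes that the study drew, so neither their changes nor their levels are an independent check of the sorted cell type, and levels of miR-124 relative to them are not compared between samples. miR-204 had 285706 normalized counts in wild type, 51963 after LD and 30438 in Dicer-cKO. miR-125b-5p had 109596, 19063 and 18202 counts. miR-9 had 75416, 38870 and 18100 counts.

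miR-124 was above wild type with every reference tried. Besides the authors' scaling, 11 others were computed. After LD the ratio to wild type was above 1 in all 11, between 2.04 with the 6 highest ERCC rows as reference and 10.5 with the same total miRNA signal without miR-720. In Dicer-cKO it was also above 1 in all 11, between 1.65 and 37.1 with the same references. With the housekeeping mRNA Rpl19 alone the ratio was 2.38 after LD and 9.46 in Dicer-cKO, and with Gapdh alone 8.55 and 11.5. The size of the difference was therefore open within a wide range. The order of LD and Dicer-cKO reversed with the nmiR rows (LD over Dicer-cKO 3.11) and with the ERCC rows (1.24) as reference.

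**Figure D3:**
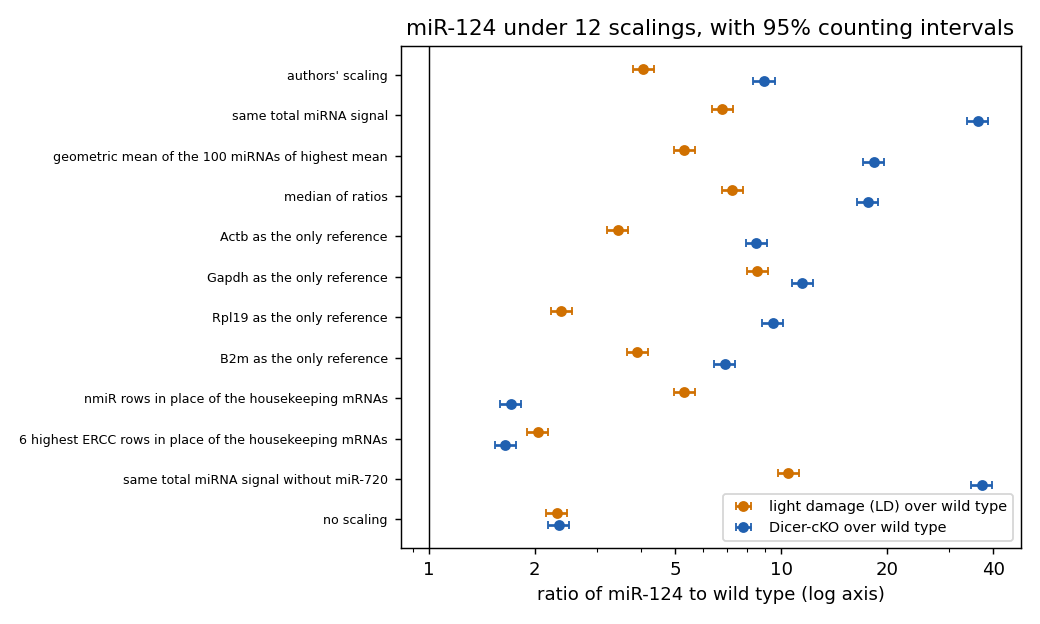
Ratio of miR-124 to wild type (log axis) after LD and in Dicer-cKO under the authors' scaling and 11 others, with exact 95% counting intervals. All points lie above 1, from 2.04 to 10.5 after LD and from 1.65 to 37.1 in Dicer-cKO.

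A mean of at least 100 normalized counts over the 3 samples was reached by 104 miRNAs, which include miR-124 and none of the other members. Their median ratio to wild type was 0.612 after LD and 0.388 in Dicer-cKO. Within them the ratio of miR-124 ranked 14 after LD and 3 in Dicer-cKO. Within this fixed list the ranks are not altered by a factor per sample. The list itself was chosen on the authors' normalized counts, so its members, and with them the ranks and medians, depend on that scaling. Both comparisons share the wild type sample, so that a low wild type value enters both.

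**Figure D4:**
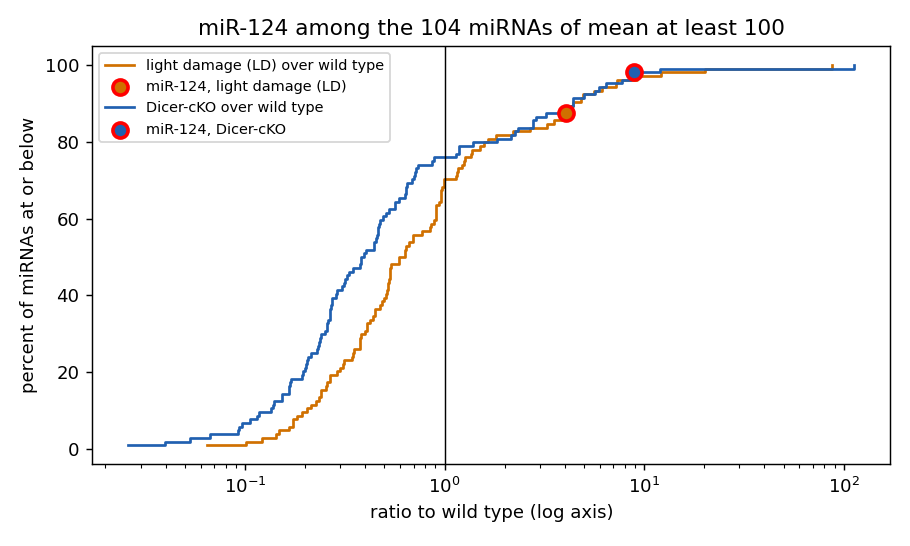
Percent of the 104 miRNAs whose mean reached 100 counts at or below a given ratio to wild type (log axis), for LD and for Dicer-cKO, with values at the lowest value of a sample set to 3 counts. miR-124 (red rims) lies at 4.07 after LD and 8.94 in Dicer-cKO, to the right of the medians of 0.612 and 0.388.

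The remaining members were low in all samples, and their differences rest on few counts. For these, a value at the lowest value of a sample was set to 3 counts before scaling (3.46 normalized counts in wild type, 6.11 after LD and 13.3 in Dicer-cKO), so that the fold is a bound. The interval printed with such a bound takes the 3 counts as if they had been counted. It does not measure the counting error of an observed value. miR-137 had 45 normalized counts in wild type, 117 after LD and the lowest value in Dicer-cKO. The LD sample was the highest, 2.57-fold above wild type (95% interval 1.69 to 3.96), and the Dicer-cKO sample was at least 3.43-fold below wild type. Before scaling the LD sample was 1.46-fold above wild type, within counting error (0.957 to 2.25), and under the 11 other scalings it was 1.29 to 6.63 times wild type. The bound in Dicer-cKO has an interval of 0.0577 to 0.917 times wild type, with the 3 counts taken as counted. Under the 11 other scalings the bound ran from 0.0537 to 1.21 times wild type. It is 0.972 times wild type with a floor of 10 counts, and with the highest negative control of the Dicer-cKO sample, which lies above the wild type count, no fall is shown.

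miR-138 had 22 normalized counts in wild type, 66 after LD and the lowest value in Dicer-cKO. As for miR-137, the LD sample was the highest, 2.96-fold above wild type (1.63 to 5.49). Its 32.5 counts before scaling were just above the highest negative control of 31.5, and before scaling the ratio of 1.68 was within counting error (0.927 to 3.11). Under the 11 other scalings the LD ratio was 1.48 to 7.61. In Dicer-cKO the bound of 1.69-fold below wild type did not reach the limit of 2-fold in the scaling of the authors. Before scaling the bound was 0.155 times wild type (0.0294 to 0.524), and under the 11 other scalings it ran from 0.109 to 2.46.

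miR-129-5p had 35 normalized counts in wild type, the lowest value after LD and 43 in Dicer-cKO. The LD sample was the lowest, at least 5.75-fold below wild type with the floor of 3 counts, a bound of 0.174 times wild type (0.0340 to 0.559). The bound was 0.0988 times wild type before scaling (0.0193 to 0.317) and ran from 0.0872 to 0.448 under the 11 other scalings. However, 0 members were counted as lower after LD with Gapdh alone or with the total without miR-720. With the floor at the second highest negative control the bound is 0.319 times wild type, and with a floor of 10 counts 0.580 times. The highest negative control after LD lies above the wild type count, so with it as the floor (1.83 times) no fall can be shown. The Dicer-cKO sample was 1.21-fold the wild type level, with an interval of 0.521 to 2.57 that allows a fall as well as a rise. Before scaling it was 0.317 times wild type (0.136 to 0.671), a difference beyond counting error, and under the 11 other scalings the ratio ran from 0.223 to 5.03. Its 9.63 counts before scaling in Dicer-cKO were below the highest negative control.

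miR-128 had 21 normalized counts in wild type, the lowest value after LD and 7 in Dicer-cKO. With the floor of 3 counts it was at least 3.48-fold lower after LD, a bound of 0.288 times wild type. The interval of this bound, with the 3 counts taken as counted, reached from 0.0544 to 0.982. This bound was 0.163 times wild type before scaling (0.0309 to 0.557) and ran from 0.144 to 0.741 under the 11 other scalings. With a floor of 10 counts the bound is 0.959 times wild type, so the fall is not firm. In Dicer-cKO it had 1.63 counts before scaling, and the ratio of 0.338 was within counting error (0.0268 to 1.58). Before scaling the ratio was 0.0884 (0.00699 to 0.413), beyond counting error, and under the 11 other scalings it ran from 0.0624 to 1.40. Set to the floor of 3 counts, an alternative chosen after seeing the data, it gives a bound of 0.625 times wild type, so that no fall past 2-fold is shown in the scaling of the authors. In wild type its 18.4 counts before scaling were below the highest negative control of 23.4 and equal to the next highest control.

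miR-7a had 21 normalized counts in wild type, 25 after LD and 25 in Dicer-cKO. In the scaling of the authors its ratio to wild type was 1.20 (0.535 to 2.60) after LD and 1.17 (0.367 to 3.13) in Dicer-cKO, both within counting error. Before scaling it was 0.680 (0.304 to 1.47) after LD and 0.306 (0.0960 to 0.819) in Dicer-cKO, the latter below wild type by more than counting error, and under the 11 other scalings the Dicer-cKO ratio ran from 0.216 to 4.86. None of its 3 values was above the highest negative control, so these ratios show neither a change nor a constant level. miR-218 was at the lowest value in wild type and Dicer-cKO and had 3 normalized counts after LD, and no fold is given for it or for miR-153.

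Over all 8 members, 3 were at least 2-fold higher after LD by more than counting error (miR-124, miR-137 and miR-138), compared with 7.64% of the 602 panel miRNAs. After LD 2 members were lower by the same rule (miR-128 and miR-129-5p), compared with 23.8% of the panel. In Dicer-cKO 1 member was higher (miR-124, panel 8.64%) and 1 lower (miR-137, panel 18.1%). Each member called lower was at the lowest value in that condition, so these calls rest on the set floor and not on an observed count. An alternative chosen after seeing the data set every value up to the highest negative control to that control. The 3 members higher after LD and the 1 in Dicer-cKO were then still counted (panel 4.98% and 3.32%). For miR-138 this was largely given by the floors, 27.0 normalized counts in wild type and 64.1 after LD. Its wild type count was raised to the floor and its LD count of 66 lay just above it (2.45-fold), so nothing is read from this. With these floors 0 members were lower in either condition (panel 7.81% and 8.31%). That was fixed in advance, because the floors of 64.1 after LD and 170.7 in Dicer-cKO exceed the wild type count of every member except miR-124. Over the 6 members with a ratio, bounds included, the median log2 ratio was 0.81 after LD and -0.26 in Dicer-cKO, compared with -0.71 and -1.37 for the 104 miRNAs of mean at least 100. Over all 8 it was 0.54 and 0.25, but there miR-153 and miR-218 enter without a measured ratio, miR-153 as floor over floor in both comparisons and miR-218 as floor over floor in Dicer-cKO and as 1.5 counts over the floor after LD. The sign of the Dicer-cKO median thus depends on these 2, and nothing is read from it. Of the members only miR-124 is among the 104, so in both conditions mostly low counts and bounds are set beside more abundant miRNAs. No rise of the members against comparable miRNAs is read from these medians.

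On the normalized scale miR-124 was higher in both conditions, miR-137 and miR-138 were highest after LD and at the lowest value in Dicer-cKO, and miR-128 and miR-129-5p were at the lowest value after LD only. The LD level of miR-137 was at least 8.82-fold and that of miR-138 at least 4.99-fold the Dicer-cKO level with the floor of 3 counts, whereas the normalized count of miR-124 was lower after LD than in Dicer-cKO, an order that rests on the scaling (ratio 0.988 before scaling). With the highest negative control as the floor the bounds fall to 0.685 and 0.387, so that a difference between LD and Dicer-cKO is neither shown nor excluded for miR-137 and miR-138.

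The panel miRNAs most like miR-124 were sought by the distance between their pair of log2 ratios to wild type and that of miR-124, over the other 103 miRNAs whose mean reached 100 counts. With 3 samples this is a likeness of 2 numbers. The limit on the mean also favours miRNAs that are high in LD and Dicer-cKO, and 3 of the 5 nearest, with 40 to 54 normalized counts in wild type, passed it only through these samples. The nearest was MIMAT0004883, at a distance of 0.25 log2 units, with 54 normalized counts in wild type, 257 after LD and 458 in Dicer-cKO. Its ratio was 4.81 (3.41 to 6.88) after LD and 8.55 (5.99 to 12.4) in Dicer-cKO. Next was MIMAT0000541, at 0.99 log2 units, with 285, 626 and 3433 counts. The 5 nearest had ratios of 2.20 to 9.25 after LD and 2.78 to 12.1 in Dicer-cKO. The table does not pair these identifiers with names.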

How the data were processed

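The deposited values were a signal, namely counts of molecules that the authors had corrected with 8 negative and 6 positive controls and normalized to 4 housekeeping mRNAs (Actb, Gapdh, Rpl19 and B2m) with nSolver 4.0. No aligner or genome was involved. The table held 602 miRNAs, 4 housekeeping mRNAs, 14 ERCC rows and 6 nmiR rows, whose content the sources used here do not state. Housekeeping and nmiR rows keep 2 decimals, from which 1 factor per sample was found, and dividing by it gave the miRNA counts before scaling.

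A member was counted as higher or lower when its ratio to wild type was past 2-fold and the exact 95% Clopper-Pearson interval of its counts left out 1. Lowest values were set to 3 counts, in the ratio and in the interval. How much background had been subtracted is not known. The text names all 8 members and the miRNAs nearest to miR-124. The members, lists and limits were chosen with earlier results of these data known. The names of miR-204, miR-125b-5p, miR-9 and miR-720 come from an earlier match of table rows with changes the study drew. Lists of other strands, further neuronal, photoreceptor, immune cell, red blood cell and vessel miRNAs could not be named and are not reported. Alternatives comprised 11 scalings, other folds, floors, backgrounds and a pseudocount of 10. The interval and factor recovery were tested on simulated data. The interval was tested only where both expected counts were well above the floor, with no background subtraction and no floor. That test does not cover the bounds or the lowest counts of the members. Computations used scipy 1.17.1, pandas 2.3.3 and numpy 2.4.6 under Python 3.11.15, and plots matplotlib 3.10.9.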

Additional observations from a re-analysis of the deposited data

How the results depend on the processing

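No paired analysis was possible because there was only 1 sample in each group. For each change below the cause was not tested, except that a higher floor by its construction leaves fewer values to compare. The floors at the highest and second highest negative control, and the setting of every value under 3 counts to 3 counts, were chosen after seeing the data. The panel share is the percent of all 602 miRNAs counted the same way.

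The number of members higher after LD, 3 in the authors' scaling, was 1 with Rpl19 alone, with the 6 highest ERCC rows, without scaling and at a limit of 3-fold (panel shares 4.82 to 6.81%), and 4 with Gapdh alone (14.3%) and with the total without miR-720 (16.4%). The number lower after LD, 2, was 1 with the same total miRNA signal, the 100 highest miRNAs, the median of ratios, the nmiR rows or the floor at the second highest negative control (11.3 to 20.6%), and 0 with Gapdh alone, with the total without miR-720, with a floor of 10 counts and with the floor at the highest negative control (6.64 to 17.4%). The number higher in Dicer-cKO, 1, was 3 with the same total signal, with or without miR-720 (22.1 and 22.3%), 2 with the 100 highest miRNAs (14.0%) or the median of ratios (13.5%), and 0 with the nmiR or ERCC rows (0.831% each). The number lower in Dicer-cKO, 1, was 5 with the nmiR rows (44.7%), with the ERCC rows (44.9%) and without scaling (41.5%), and 0 with the same total signal with or without miR-720, the 100 highest miRNAs, the median of ratios, Gapdh alone, a floor of 10 counts and the floor at the highest negative control (1.5 to 15.4%). The median log2 ratio of all 8 members minus that of the 104 miRNAs of mean at least 100 includes 2 members without a measured ratio. It also sets mostly low members beside more abundant miRNAs. After LD it was 1.25 (1.52 over the other 6 members) and was 1.80 with a floor of 1 count, 1.53 with every value under 3 counts set to 3 counts and 0.89 with a pseudocount of 10. In Dicer-cKO it was 1.62 (1.10 over the other 6), 1.995 with a floor of 10 counts and 1.38 against miRNAs of mean at least 50. The ratio of miR-124 in LD to Dicer-cKO, 0.455, reversed to 3.11 with the nmiR rows and 1.24 with the ERCC rows.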
